A study of Mus musculus with 44 samples.

Results

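Accessible chromatin was compared between Smarcc2 knockout and non-targeting neurons that had been kept silent. The comparison used 4 of the 44 ATAC-seq libraries of the series: 2 from neurons with Smarcc2 knockout and a vector, and 2 with a guide RNA that has no target (non-targeting). The labels name a vector for the knockout libraries and none for the non-targeting libraries. By the labels, an effect of the knockout and one of the vector cannot be told apart, and knockout below means knockout with vector. The 4 were chosen by their labels alone. ATAC-seq reads the DNA that a transposase can cut, which marks promoters, enhancers and other open sites. The neurons were dissected from E16.5 mouse cortex, given CRISPR guide RNAs and kept in culture for 18 days (DIV18). Every culture was silenced overnight with 1 µM tetrodotoxin, which blocks sodium channels, and 100 µM D-AP5, which blocks NMDA receptors, so the non-targeting neurons carry this treatment as well. DNase at 200 U/mL was in the wells for 30 min, and 75000 nuclei went into each reaction. The whole DIV18 experiment held 20 libraries in 10 groups of 2. Its other groups were knockout neurons given back wild-type Smarcc2 (the WT add-back), S586A or S586E, each silenced or depolarized, and depolarized knockout and non-targeting neurons (50 mM KCl for 30 min). All 20 libraries served to place the regions and to estimate the spread in the test, and values of the other groups are given beside those of the 4 libraries. The labels count each embryo's cortex as a biological replicate but do not tie a library to an embryo, so p-values measure the spread between these libraries, which may be technical. The labels used here do not give the share of edited cells, and in a bulk culture fewer open cells and less opening per cell cannot be told apart.

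BAF complexes (also called SWI/SNF) use ATP to slide and evict nucleosomes, and neurons carry their own set of subunits. Smarcc2, also known as BAF170, is a core scaffold subunit; with its close relative Smarcc1 (BAF155) it forms the base on which the other subunits and the ATPase Smarca4 or Smarca2 assemble. BAF is known for keeping enhancers far from genes open, and loss of its subunits in the developing cortex disturbs neuron production and identity. The study's design text gives the effects of Smarcc2 phosphorylation and of the gene's knockout as the purpose of this experiment.

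The deposited lists give, for each library, the summits of open intervals and the authors' −log10 p at each summit. Only values relative to other sites of the same library were compared here, since read totals were not part of the files used. Each autosomal summit was ranked by its −log10 p. The rank score of a region of 500 bp is log2(233687 / rank of its best summit), where 233687 is the length of the shortest of the 20 autosomal lists, and 0 where the region held no summit within that length. One unit more therefore means a rank nearer the top by a factor of 2. Reads at a summit are reads stacked at that base, recovered from the even steps of the authors' fold enrichment, and are not scaled for depth.

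Knockout libraries listed fewer open intervals. They held 198612 and 215071 intervals, against 235380 and 236904 in the WT add-back and 233653 and 266049 in non-targeting libraries. Both knockout libraries thus lay below both non-targeting libraries, with a difference of −17.2% in the means (206842 ± 11638 in knockout and 249851 ± 22907 in non-targeting libraries, SD, n = 2 each). Among autosomal intervals with an authors' −log10 q of at least 5, the counts were 111000 and 102935 in knockout libraries and 133051 and 156726 in non-targeting libraries, a difference of −26.2%. Intervals covered 84.7 and 87.7 Mb in knockout libraries and 90.7 and 108 Mb in non-targeting libraries. A count of intervals grows with depth. The background level, the only measure of depth that the files gave, was 1.99 and 1.69 reads per base in knockout libraries and 1.51 and 2.23 in non-targeting libraries, so the groups overlapped, and its part in the counts was not tested. With 2 libraries against 2, an exact two-sided permutation test of the interval count gave p = 0.333, the smallest this design allows. Over both states, with libraries permuted within each state, the exact p was 0.0556, again the smallest possible (adjusted p = 0.0625 over 18 measures of the lists).

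The strongest summits of knockout libraries lay more often at genes. Of the top 75000 autosomal summits, 35.7% and 36.3% fell within 1 kb of the start or end of a protein-coding gene (gene ends) in knockout libraries, against 31.6% and 31.4% in the WT add-back and 30.6% and 31.4% in non-targeting libraries. Summits over 100 kb from any gene end made up 9.15% and 8.85% in knockout libraries, 11.2% and 10.7% in the WT add-back, and 12.3% and 11.0% in non-targeting libraries. Neither share overlapped between knockout and non-targeting libraries, and the WT add-back lay near the non-targeting values in both. Among the top 30000 summits the gene-end share was 49.9% and 51.6% in knockout libraries and 42.8% and 44.3% in non-targeting libraries. The slope of the lists also differed: at rank 1000 the summit stood 210 and 207 times over background in knockout libraries and 174 and 183 times in non-targeting libraries, but at rank 75000 it stood 14.6 and 14.2 times over background in knockout libraries and 16.6 and 15.7 times in non-targeting libraries. The exact two-sided permutation p was 0.333 for each of these measures, the smallest possible. Depolarized neurons showed the same order of groups, with 41.0% and 41.0% of top summits at gene ends in knockout libraries against 38.3% and 38.2% in non-targeting libraries.

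**Figure D1:**
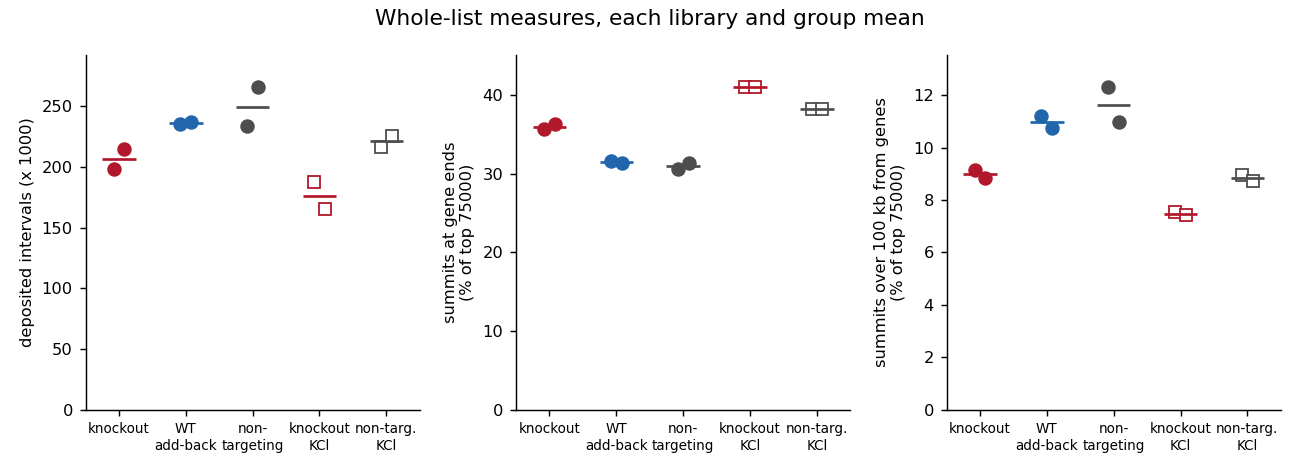
Deposited intervals, in units of 1000 (left), and the percentage of the top 75000 autosomal summits at gene ends (middle) and over 100 kb from gene ends (right), for knockout, WT add-back and non-targeting libraries without KCl (filled circles), then knockout and non-targeting libraries with KCl (open squares). Each point is 1 library and each bar a group mean (n = 2); unstimulated knockout libraries hold 198612 and 215071 intervals, below both non-targeting libraries (233653 and 266049), and 35.7% and 36.3% of summits at gene ends, above both (30.6% and 31.4%).

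Region by region, far more sites ranked lower than higher in knockout neurons. Of 84873 regions tested with limma across the 20 libraries, 9882 (11.6%) were called at an adjusted p under 0.05, of which 7528 (8.87%) were lower and 2354 (2.77%) higher in knockout neurons. The median change was −1.35 on the log2 rank scale over the lower regions and 1.21 over the higher regions. Without regard to the test, the 2 knockout libraries lay above both non-targeting libraries in 25.9% of regions and below both in 28.5%. Higher calls made up 23.8% of all calls; they made up 42.3% when whole intervals were ranked in place of summits, 37.6% when an interval had to cover at least 50% of the region, 39.1% with interval number (log2) as a covariate and 7.71% with log2 fold enrichment in place of rank. Lower calls outnumbered higher calls in each of these. The test borrows its spread from the other groups: fitted on the 4 libraries alone, limma called 0 regions, with 11613 lower and 5984 higher at an unadjusted p under 0.05. The counts also rested on single libraries: without knockout replicate 1 or 2 there were 5630 or 2409 calls, and without non-targeting replicate 1 or 2 there were 2535 or 8930, with lower calls in the majority each time. Ranking whole intervals left 3394 of the lower and 1316 of the higher regions called in the same direction. These are referred to below as called with both units.

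The direction depended on the distance to a gene. Of 20297 gene-end regions 777 (3.83%) were higher and 280 (1.38%) lower in knockout neurons, with a median change of 0.24. Of 53661 distal regions, which lie 1 to 100 kb from the nearest gene end, 1413 (2.63%) were higher and 5598 (10.4%) lower, with a median change of −0.07. Some distal regions lie on a transcription start site, so this class is not free of promoters. Of 10915 regions over 100 kb from any gene end 164 (1.5%) were higher and 1650 (15.1%) lower, with a median change of −0.37. The share of lower calls was 1.38% within 1 kb, 5.88% at 1 to 5 kb, 11.4% at 5 to 20 kb, and 18.5% beyond 300 kb. Regions inside genes and more than 1 kb from their ends were lower in 10.8% of cases, and regions outside genes in 11.9%, so lying in a gene body made less difference than distance. The order held among the strongest sites too: of the 10000 regions with the highest mean rank score, 0.435% at gene ends, 9.01% of the distal ones and 22.8% of those over 100 kb from a gene were lower. Lower calls outnumbered higher calls on every autosome: between 7.36% and 11.1% of a chromosome's regions were lower and between 1.93% and 3.49% higher. Ranks are relative within a library, so a gain at gene ends and a loss of other strong sites cannot be told apart. With whole intervals the median of distal regions was 0.04, and with fold enrichment higher and lower calls at gene ends were nearly equal in number (0.621% and 0.552%).

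**Figure D2:**
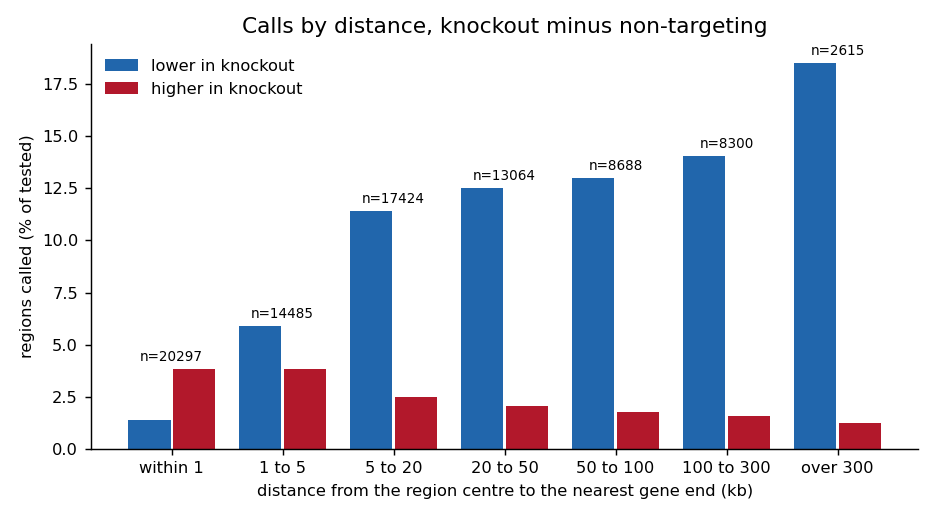
Percentage of tested regions called lower (blue) and higher (red) in knockout than in non-targeting neurons, against the distance in kb from the region's centre to the nearest gene end; n above each pair is the number of regions tested. Lower calls go from 1.38% within 1 kb to 18.5% beyond 300 kb, while higher calls go from 3.83% to 1.26%.

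The largest losses, among regions called with both units and where no listed interval lacked a summit in the region, were all distal. Their 12 changes ran from −3.20 to −2.72, in each the WT add-back libraries both lay above both knockout libraries, and 11 of the 12 were also called lower in depolarized knockout neurons. All 12 stayed called with fold enrichment in place of rank. Without 1 of the 4 libraries, the largest change, inside Ptgs1, ran from −3.375 to −3.033. The 12 were chosen for large changes between these same 4 libraries, so neither result is separate support. A region inside Ptgs1, which encodes cyclooxygenase 1, and 5848 bp from its end (chr2:36222340-36222839) had rank scores of 0.36 and 0.70 in knockout libraries, 3.26 and 3.33 in the WT add-back, and 3.82 and 3.65 in non-targeting libraries. Its summit held 12 and 13 reads in knockout libraries and 70 and 94 in non-targeting libraries. The change was −3.20 ± 0.27 (SE, limma, adjusted p = 1e-06). A region 40137 bp from Panx1, the gene of the channel protein pannexin 1 (chr9:14965398-14965897), had 1.28 and 1.18 in knockout libraries, 3.94 and 4.01 in the WT add-back, and 4.65 and 4.09 in non-targeting libraries, a change of −3.14 ± 0.26 (limma, adjusted p = 1e-06). The depolarized contrast at Panx1 was −2.99.

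Other sites in this set lay in or near genes with known roles in neurons. A region deep inside Filip1, whose product controls filamin and cell migration in the cortex (chr9:79919811-79920310), had 1.01 and 0.17 in knockout libraries, 2.89 and 2.17 in the WT add-back, and 3.64 and 3.34 in non-targeting libraries. The change was −2.91 ± 0.37 (limma, adjusted p = 0.000132). A region near Dab2ip, a Ras GTPase-activating protein with a role in neuronal migration (chr2:35529840-35530339), changed by −2.83 ± 0.33. A region inside Dbt, a subunit of the enzyme that breaks down branched-chain keto acids (chr3:116536749-116537248), held no summit in either knockout library, against 42 and 65 reads in non-targeting libraries; its rank score was 2.68 and 2.84 there and 2.37 and 2.41 in the WT add-back. Others of the set lay nearest Nup160, 4930444P10Rik, Dynlrb1, Lrrc8c, Gm973 and Gm38821; Gm973 was the 1 not called when depolarized (limma, adjusted p = 0.203).

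**Figure D3:**
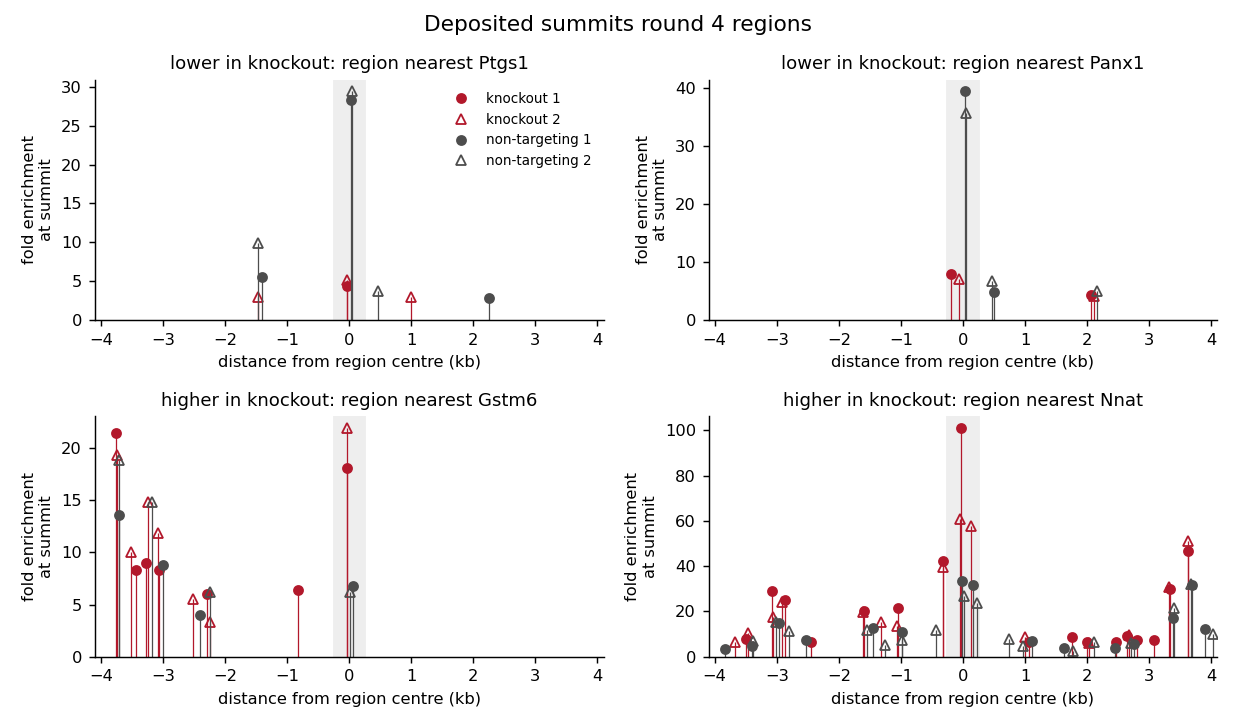
Deposited summits within 4 kb of the centre of 4 regions, with the authors' fold enrichment on the vertical axis; knockout libraries are red, non-targeting libraries grey, replicate 1 a circle and replicate 2 a triangle, and shading marks the tested 500 bp. At Ptgs1 and Panx1 the non-targeting summits stand over those of both knockout libraries, at Gstm6 and Nnat the reverse.

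The largest gains by the same rule were smaller, from 1.88 to 2.16, and 4 of the 12 lay at gene ends. A region inside Gstm6, a glutathione S-transferase gene (chr3:107943513-107944012), had 2.68 and 3.23 in knockout libraries, 1.30 and 1.36 in the WT add-back, and 0.94 and 0.65 in non-targeting libraries. Its summits held 53 and 58 reads in knockout libraries and 16 and 19 in non-targeting libraries, and the change was 2.16 ± 0.35 (limma, adjusted p = 0.00109). A region 1190 bp from Grm2, a presynaptic metabotropic glutamate receptor (chr9:106643094-106643593), had 3.66 and 3.95 in knockout libraries, 2.68 and 2.13 in the WT add-back, and 1.53 and 2.17 in non-targeting libraries (change 1.96 ± 0.40, limma, adjusted p = 0.00405). At both sites the knockout libraries lay over all 4 others. A region inside Synpo, whose product synaptopodin organizes actin in dendritic spines, changed by 2.07 ± 0.48; Moap1, a modulator of apoptosis, by 2.02 ± 0.35 at its end. Only 1 of the 12, nearest Dpy19l2, was also called higher in depolarized knockout neurons (1.50, limma, adjusted p = 0.0366). With fold enrichment in place of rank, the calls at Synpo, Pusl1, Dntt and Rpn2 were lost (limma, adjusted p = 0.06, 0.222, 0.0736 and 0.0635). Without knockout replicate 2, or without non-targeting replicate 1, 8 of the 12 stayed called. The other regions of the set lay nearest Nnat, Rxfp2, Trmt9b and Pitpnm1.

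**Figure D4:**
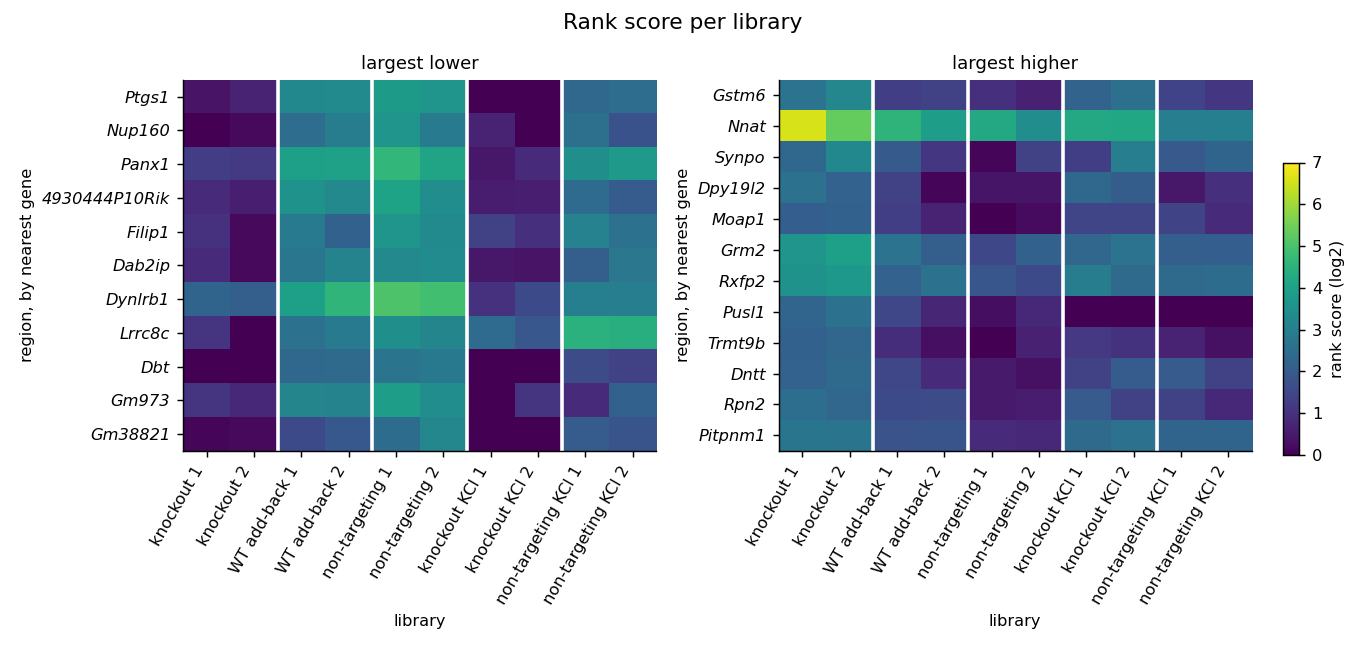
Rank score (log2, colour) of 11 of the 12 largest lower (left) and the 12 largest higher (right) regions called with both units and without a missing summit, named by the nearest gene. Columns are single libraries of knockout, WT add-back and non-targeting neurons without KCl, then knockout and non-targeting neurons with KCl; at Ptgs1 the knockout libraries have 0.36 and 0.70 and the non-targeting ones 3.82 and 3.65.

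Changes ranked over all called regions, without that condition, were larger but rested on where summits were placed. The top 12 gains ran from 2.77 to 4.47 and the top 12 losses from −4.60 to −2.99, and 9 and 8 of them had a library in which an interval covered the region but no summit fell in it. The largest gain was at the end of Arhgap5, a GTPase-activating protein, with 3.18 and 5.76 in knockout libraries and 0 in both non-targeting libraries, and with whole intervals its change was 0.57 (limma, adjusted p = 0.0861). The largest loss, at the end of the lipid kinase gene Pip5k1c, was −4.60 ± 1.39 with summits and 0.16 with whole intervals (limma, adjusted p = 0.937). Of the 2354 higher regions 7.52% had such a gap in one of the 4 libraries, and of the 7528 lower regions 0.983%, against 2.33% of all regions.

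Higher regions clustered round Nnat, the imprinted gene of neuronatin, a small membrane protein of the endoplasmic reticulum in developing neurons; this locus was singled out after its values were seen. Within 100 kb of the gene (chr2:157560078-157562525) 11 of 32 regions were higher and 1 lower in knockout neurons, 7 of the called ones with both units, against 2.77% and 8.87% of all regions, and the median change was 0.92. The region beside the end of the gene (chr2:157562731-157563230), which also lies inside Blcap, had 6.59 and 5.36 in knockout libraries, 4.55 and 3.90 in the WT add-back, and 4.23 and 3.42 in non-targeting libraries. Its summits held 301 and 163 reads in knockout libraries and 83 and 85 in non-targeting libraries (change 2.15 ± 0.36, limma, adjusted p = 0.00123). All 11 had a positive change in depolarized neurons as well, but none was called there (limma, adjusted p from 0.0503 to 0.621). With fold enrichment in place of rank, the region beside the end of the gene stayed called (limma, adjusted p = 0.00768). So did chr2:157558512-157559011 and chr2:157530221-157530720 (limma, adjusted p = 0.0349 and 0.0435). All others of the 11, and so most of them, lost the call (limma, adjusted p from 0.0716 to 0.486). Some neighbouring regions had the same change with whole intervals (2.04), so the 11 may not all be separate sites.

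Of 15493 genes with a tested region within 100 kb, 4240 were nearest to at least 1 lower region, 1925 to at least 1 higher region and 630 to both. Lower regions were spread out: 327 genes were nearest to 3 or more. Med13l, a subunit of the Mediator kinase module, had the most, with 8 of its 26 regions lower and 1 higher. Herc2, a ubiquitin ligase, had 5 of 8 lower. The Ras pathway scaffold gene Ksr1 and the postsynaptic adhesion gene Lrrc4 each had 6 of 22 lower and 0 higher. Vgf, an activity-regulated secreted neuropeptide gene, had 5 of 10 regions higher and 0 lower, and Gria2, the AMPA receptor subunit that blocks calcium entry, 4 of 14 higher and 0 lower. Other genes had calls both ways, such as Coro2b with 5 of 44 higher and 2 lower, and Gnao1 with 4 of 31 higher and 2 lower. Over all regions, 8.87% were lower and 2.77% higher. Counts per gene grow with the number of regions a gene has and carry no test, and these genes were picked for high counts.

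Some changed regions lay on a promoter. Of 9066 tested regions whose centre lay within 250 bp of a RefSeq transcription start site, 262 were higher and 48 lower in knockout neurons. The 262 were near the share of higher calls over all regions (2.77%) and under that at gene ends (3.83%). The 48 were a smaller share than lower calls over all regions (8.87%) and at gene ends (1.38%). A region on a start site can belong to the distal class. The Gstm6 region given above and the Gucy2g region below lay on a start site but 4916 and 19408 bp from the nearest gene end. The 300 bases from 250 before to 50 after the start held a median of 23 CpG in the higher set, 5.5 in the lower set and 22 in all 9066, and a median GC content of 63.7% in the higher set, 54.2% in the lower set and 62.0% in all. Of 14 motifs counted, 5 are given here. The AP-1 motif TGANTCA, bound by Fos and Jun proteins, was found on either strand in 5 of the 262 higher (1.91%) and 14 of the 48 lower promoters (29.2%), against 4.70% of the 9066 and 7.06% of all 20084 promoters in the table. The E-box CAGATG, a form bound by NeuroD-type factors, was in 9.92% of the higher and 33.3% of the lower promoters, against 10.9% of the 9066. The KLF/SP box GGGCGG was in 67.9% of the higher and 33.3% of the lower promoters, against 68.4%. TGACGTCA, the CREB site, was in 2.67% of the higher and 0 of the 48 lower promoters, against 3.50%, and AGGGGGC, a CTCF core, in 26.7% of the higher and 14.6% of the lower promoters, against 18.1%; it can overlap GGGCGG. A match describes letters and is not evidence of binding. The 2 promoters with the largest changes in each direction, called with both units, are shown. Sequences are from RefSeq for GRCm38.p6 (the mm10 build), written along the gene's strand. Capitals mark a match on either strand to the AP-1 motif, the CAGATG box or the GGGCGG box.
Gstm6, higher, chr3:107943685-107943984, minus strand: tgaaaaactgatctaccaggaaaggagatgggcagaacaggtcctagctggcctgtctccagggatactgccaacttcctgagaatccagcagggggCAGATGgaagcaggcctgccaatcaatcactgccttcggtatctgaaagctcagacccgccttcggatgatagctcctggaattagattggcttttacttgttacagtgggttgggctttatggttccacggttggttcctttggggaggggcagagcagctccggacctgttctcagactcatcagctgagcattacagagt
Pitpnm1, higher, chr19:4099748-4100047, plus strand: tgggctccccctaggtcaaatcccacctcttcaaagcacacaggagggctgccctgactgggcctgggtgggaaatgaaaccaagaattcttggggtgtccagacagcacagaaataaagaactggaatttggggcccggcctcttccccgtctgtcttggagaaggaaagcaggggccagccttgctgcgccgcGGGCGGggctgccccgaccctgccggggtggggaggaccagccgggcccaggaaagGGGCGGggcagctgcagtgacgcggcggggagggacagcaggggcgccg
Emp1, lower, chr6:135362681-135362980, plus strand: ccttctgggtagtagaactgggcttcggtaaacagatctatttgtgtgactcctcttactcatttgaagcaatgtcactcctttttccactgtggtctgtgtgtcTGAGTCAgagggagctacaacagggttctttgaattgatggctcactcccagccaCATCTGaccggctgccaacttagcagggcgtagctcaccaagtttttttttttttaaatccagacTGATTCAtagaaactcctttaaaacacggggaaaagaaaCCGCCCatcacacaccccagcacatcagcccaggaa
Gucy2g, lower, chr19:55217523-55217822, minus strand: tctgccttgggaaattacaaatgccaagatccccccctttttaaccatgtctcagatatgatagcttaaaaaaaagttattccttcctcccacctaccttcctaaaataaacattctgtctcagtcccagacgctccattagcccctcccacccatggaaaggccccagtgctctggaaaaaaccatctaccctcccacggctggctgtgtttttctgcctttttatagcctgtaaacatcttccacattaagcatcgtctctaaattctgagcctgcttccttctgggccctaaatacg
The Emp1 promoter held 2 AP-1 motifs, 1 CAGATG and 1 GGGCGG, and that of Pitpnm1 2 GGGCGG. The higher promoter of Gstm6 held 1 CAGATG and no GGGCGG, and the lower promoter of Gucy2g held none of these. Gstm6 thus lacked the GGGCGG box found in 67.9% of the higher set. In the lower set AP-1, CAGATG and GGGCGG were each found in a minority of promoters (29.2%, 33.3% and 33.3%), so Gucy2g was no exception to it.

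These promoters were chosen for large changes between the same 4 libraries, so the distance between the groups follows from the choice. Emp1, which encodes an epithelial membrane protein, had rank scores of 2.12 and 1.82 in knockout libraries, 3.75 and 4.56 in the WT add-back, and 3.95 and 4.11 in non-targeting libraries, a change of −2.05 ± 0.32 (limma, adjusted p = 0.000823). Its region was lower in depolarized knockout neurons too (−1.31, limma, adjusted p = 0.0266). Gucy2g, a guanylate cyclase gene, had 0 and 0.46 in knockout libraries and 1.74 and 2.00 in non-targeting libraries, and its change with KCl was −0.42 (limma, adjusted p = 0.571). Pitpnm1, a phosphatidylinositol transfer protein gene, had 2.71 and 2.69 in knockout libraries, 1.79 and 1.81 in the WT add-back, and 0.84 and 0.79 in non-targeting libraries, a change of 1.88 ± 0.32 (limma, adjusted p = 0.00139). The promoter of Tnc, the matrix protein tenascin C, had 2.98 and 1.94 in knockout libraries and 4.16 and 3.96 in non-targeting libraries (−1.61 ± 0.35, limma, adjusted p = 0.00565).

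No tested region of the Smarcc2 gene was called. The region 732 bp from its nearest end (chr10:128458200-128458699) had rank scores of 4.75 and 4.63 in knockout libraries, 4.34 and 4.30 in the WT add-back, and 4.59 and 4.80 in non-targeting libraries (change −0.01 ± 0.25, limma, adjusted p = 0.996). The region with the lowest adjusted p (chr10:128490228-128490727), at a gene end, had 3.35 and 3.42 in knockout libraries and 4.28 and 3.83 in non-targeting libraries, which do not overlap (−0.67 ± 0.27, limma, adjusted p = 0.104). A small CRISPR lesion leaves the gene in place, so this does not check the loss of the protein. A region inside the gene (chr10:128487202-128487701) stood at 12.66 and 9.24 in the WT add-back and at 0 in both knockout and both non-targeting libraries, which sets the add-back libraries apart as labelled. It stood at 13.83 and 13.93 with S586A and at 8.05 and 8.84 with S586E. Other regions of the gene showed the same, such as the one from 128482573 (11.86 and 9.22 in the WT add-back). Whether such reads came from the gene itself or from the added Smarcc2 sequence was not tested. The strongest end regions of 4 other BAF genes were not called: Smarcc1 had a change of 0.59 ± 0.31, Smarca4 of −0.25 ± 0.27, Actl6b, a neuronal subunit, of 0.28 ± 0.24, and Smarca2 of −1.37 ± 0.51 (limma, adjusted p = 0.212, 0.574, 0.471 and 0.0822). Of 57 gene-end regions in a list of 30 BAF and related genes 2 were higher and 0 lower, 1 of them at Dpf2 (1.29 ± 0.36, limma, adjusted p = 0.0229), whose call was lost with whole intervals (0.15, limma, adjusted p = 0.749) and without any 1 of 3 libraries (limma, adjusted p of up to 0.168). Of 191 distal regions 5 were higher (2.62%) and 12 lower (6.28%), against 2.63% and 10.4% of all distal regions. The 2 higher of the 57 gene-end regions made up 3.51%, against 3.83% of all gene ends. A distal region inside Smarca4 had 1.58 and 1.26 in knockout libraries, 3.05 and 2.52 in the WT add-back, and 2.97 and 3.79 in non-targeting libraries (−1.95 ± 0.36, limma, adjusted p = 0.00207).

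The gene lists are read against 10.4% lower and 2.63% higher of all distal regions, and 3.83% higher of all gene ends. Adhesion and guidance genes had 34 of 219 distal regions lower (15.5%) and 3 higher. One near Slit3, a secreted axon guidance cue, had 0 in both knockout libraries, 1.69 and 2.05 in the WT add-back, and 2.68 and 2.17 in non-targeting libraries (−2.43 ± 0.31, limma, adjusted p = 0.000132). Genes of synapses and excitability had 33 of 320 lower (10.3%) and 9 higher, which is the background share. Within it, a region inside the calcium channel gene Cacna1c changed by −1.66 ± 0.28 (limma, adjusted p = 0.00125), and a gene-end region of Gria2 by 1.39 ± 0.34 (limma, adjusted p = 0.0126; not called with whole intervals, and adjusted p of up to 0.0664 without 1 library).

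Activity genes in these silenced neurons are read against the same shares. Of 455 distal regions of the early activity list 20 were lower (4.40%, against 10.4% of all distal regions) and 9 higher. Of its 152 gene-end regions 12 were higher (7.89%, against 3.83% of all gene ends) and 2 lower. Among the 12 was a region at Gadd45b with no summit in either non-targeting library, though an interval covered it. Its change was 3.44 with summits and 0.05 with whole intervals (limma, adjusted p = 0.954 with whole intervals). The summit at the end of Fos, an AP-1 factor, scored 4.93 and 5.24 in knockout libraries and 4.78 and 5.25 in non-targeting libraries. Egr1, another immediate early factor, scored 9.56 and 10.19 in knockout libraries and 9.70 and 10.09 in non-targeting libraries. Changes at Fos, Egr1, Junb, Nr4a1 and Bdnf were 0.07, −0.02, −0.58, 0.80 and 0.53 (limma, adjusted p = 0.913, 0.988, 0.26, 0.112 and 0.257), and a p that misses the threshold does not show that the levels were equal. A distal region of Arc, a regulator of AMPA receptor endocytosis (chr15:74687229-74687728), was lower, with 1.08 and 0.70 in knockout libraries, 1.05 and 1.90 in the WT add-back, and 2.58 and 2.38 in non-targeting libraries (−1.59 ± 0.31, limma, adjusted p = 0.00293). The call at the end of Arc (−2.74) came from a missing summit in knockout replicate 2, and with whole intervals its change was −0.04. Late activity genes had 20 of 237 distal regions lower and 9 higher; a region near Nptx2, a secreted organizer of excitatory synapses, changed by −1.52 ± 0.30 (limma, adjusted p = 0.00292, up to 0.0729 without 1 library), and the end of Slc2a3, the neuronal glucose transporter, by 1.50 ± 0.28 (limma, adjusted p = 0.00258).

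Markers of cell types bear on what the cultures held. Layer factors of excitatory neurons had an open gene end for 19 of 21 genes, with a summed rank score of 66.6 and 64.9 in knockout libraries and 61.3 and 62.8 in non-targeting libraries. Microglia and vascular lists had one for only 3 of 15 genes each, and the defining Cx3cr1, P2ry12, Cldn5 and Pecam1 had none. Summed scores for microglia were 12.6 and 12.3 in knockout libraries and 11.9 and 12.2 in non-targeting libraries, and for vascular genes 5.26 and 4.62 in knockout libraries and 5.38 and 6.07 in non-targeting libraries. Astrocyte genes had 12 of 16, with 36.6 and 39.9 in knockout libraries and 35.3 and 38.4 in non-targeting libraries. Oligodendrocyte genes had 7 of 15, with 18.1 and 17.9 in knockout libraries and 14.4 and 16.9 in non-targeting libraries; the part of cell makeup in the region calls was not tested. At astrocyte genes, the glutamate transporters Slc1a3 (gene end, −1.69 ± 0.35) and Slc1a2 (distal, −1.84 ± 0.31) both had a lower region (limma, adjusted p = 0.00458 and 0.00122). The Slc1a3 region scored 2.12 and 1.76 in knockout libraries, 2.85 and 2.02 in the WT add-back, and 3.98 and 3.29 in non-targeting libraries, so WT add-back and knockout overlapped, and leaving out 1 library gave an adjusted p of up to 0.0775 with limma. The list as a whole did not follow these: of its 114 distal regions 9 were lower and 7 higher (6.14%), with a median change of 0.25, and of its 25 gene-end regions 1 was lower and 2 higher. Of 53 distal regions at interneuron genes 11 were lower (20.8%) and 1 higher. The end of Olig2, an oligodendrocyte lineage factor, scored 3.35 and 3.12 in knockout libraries, 3.02 and 4.01 in the WT add-back, and 2.25 and 2.09 in non-targeting libraries (1.07 ± 0.31, limma, adjusted p = 0.0299). This call was lost without any 1 of the 4 libraries (limma, adjusted p of 0.0948 to 0.136) and with fold enrichment (limma, adjusted p = 0.113). Lower distal regions were 9 of 193 at layer factors, 7 of 122 at progenitor genes, 4 of 72 at oligodendrocyte genes, 3 of 16 at microglia genes, 5 of 41 at vascular genes, 14 of 140 at Wnt and Hippo genes, 7 of 89 at Polycomb and demethylase genes, and 4 of 88 at housekeeping genes. At gene ends, the median change was positive for 14 of the 15 lists and −0.46 for the 3 regions of vascular genes, against 0.24 for all gene ends.

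In depolarized neurons, which are separate libraries, the same contrast called 2782 regions lower (3.28%) and 118 higher (0.139%) in knockout neurons. Of the 7528 regions lower without KCl, 7324 (97.3%) had a change below 0 with KCl, against 55.0% of all regions; 1736 (23.1%) were called lower and 0 higher, and their median change was −0.88. Distal regions were lower in 3.95% and higher in 0.136% of cases with KCl, those over 100 kb from a gene in 5.23% and 0.101%, and gene ends in 0.453% and 0.168%. The 1736 made up 62.4% of the lower calls with KCl. The number of calls with KCl depended on the method: log2 fold enrichment gave 16556 lower with KCl against 3553 without it, library weights 8520 against 4811, and a fit on 8 libraries 500 against 6193, so neither the order of the states nor these overlaps is firm. Of the 2354 regions higher without KCl 84.3% had a change above 0 with KCl, against 44.6% of all regions, but 32 were called higher and 2 lower, and the median change was 0.33. The difference between the 2 contrasts was called in 12 regions (0.0141%), 5 positive (0.00589%) and 7 negative (0.00825%), so for most regions called in 1 state only, a difference between states was not shown. The count was 821 with the top 50000 summits. Of the 12, 1 had no interval lacking a summit in any of the 8 libraries of the 2 contrasts.

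The lower set stood between knockout and non-targeting values in the add-back libraries. Its median rank score was 1.35 and 1.18 in knockout libraries, 2.37 and 2.28 in the WT add-back, 2.40 and 2.38 with S586A, 2.10 and 2.11 with S586E, and 2.78 and 2.63 in non-targeting libraries. The higher set had 2.61 and 2.65 in knockout libraries, 1.89 and 1.94 in the WT add-back, 1.91 and 1.89 with S586A, 1.90 and 2.11 with S586E, and 1.22 and 1.42 in non-targeting libraries. With KCl, the lower set had 0.927 and 0.863 in knockout libraries against 1.87 and 1.85 in non-targeting libraries, and the higher set 2.42 and 2.48 in knockout libraries against 2.07 and 2.08 in non-targeting libraries. Both sets were chosen on the unstimulated knockout and non-targeting libraries, which makes those 4 extreme, so these medians are a description with no test.

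**Figure D5:**
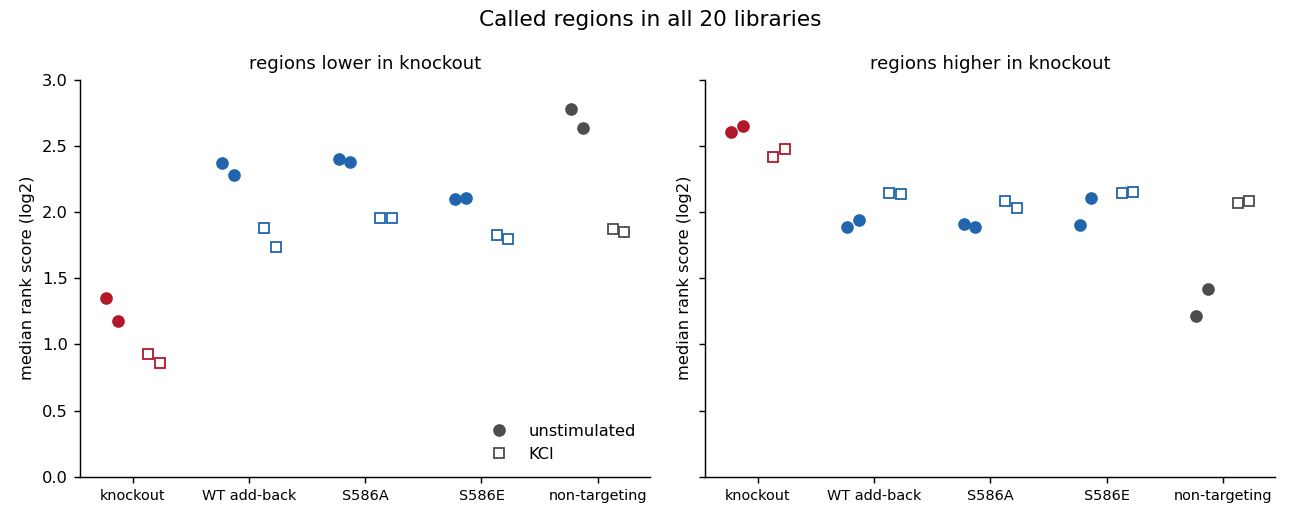
Median rank score (log2) of the 7528 regions lower (left) and the 2354 regions higher (right) in unstimulated knockout neurons, in each of the 20 libraries by genotype; filled circles are unstimulated and open squares depolarized libraries. In the lower set the knockout libraries lie at the bottom with and without KCl (0.863 to 1.35), and in the higher set the unstimulated non-targeting libraries lie lowest (1.22 and 1.42).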

How the data were processed

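The data were deposited ATAC-seq peak lists on mm10, 1 per library, not pooled. The submitters' processing notes name Bowtie2, MACS2 and bedtools, as well as Picard, SAMtools, Trim Galore and FastQC; versions are not given in the sources used here. The authors' fold enrichment is a ratio of reads at a summit to 1 background level per library. The deposited −log10 p and −log10 q come from the authors' peak caller. Ties in −log10 p took average ranks.

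Regions of 500 bp were placed on autosomal summits with a rank of at most 75000 in any of the 20 DIV18 lists, best rank first and without overlap (97408 regions). Those in the top 75000 of at least 2 libraries were tested (84873). Limma 3.58.1 in R 4.3.3 was fitted with 1 mean per group over the 20 libraries, a variance trend and Benjamini-Hochberg adjustment; the call threshold was an adjusted p of 0.05. The fit was also run on simulated rank scores with normal noise drawn separately for each library. Missing summits and deviations shared between libraries were not simulated, so that run does not cover them. Each region was assigned to the nearest of 20661 protein-coding autosomal genes of RefSeq GRCm38.p6, and promoters of 16456 of these genes were at hand; sequences of other regions were not analysed here. Replicates agreed across regions with r = 0.942 in knockout and 0.926 in non-targeting libraries. Total reads per library were not used, so depth is known only as the background level, and no counting interval was computed.

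Named regions were the 12 largest changes in each direction, 1 per gene within 100 kb, the region with the smallest p at the gene ends and among the distal regions of each gene list, and the strongest gene-end region of 20 genes, 18 of which had one. Npas4 had no summit at its strongest gene-end region in the 4 libraries. Some named regions are not reported here. The condition that a region be called with both units and have no missing summit was added after seeing the data. The members, lists and rules were chosen with earlier results of these data known. Alternatives changed list length, ranked unit, value, filter, fit, covariate, weights and libraries. Python 3.11.15, pandas 2.3.3 and scipy 1.17.1 were used.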

Additional observations from a re-analysis of the deposited data

Results flagged for a closer look

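The effect of the knockout differed between states in 12 of 84873 regions, by limma's test of the unstimulated change minus the depolarized change (adjusted p under 0.05). The difference was positive at 5 regions, nearest Egr3 (5.41), Gadd45b (4.01), Odr4 (3.80), Spaca6 (3.53) and Sfpq (3.45). It was negative at 7, among them those nearest Nr4a1 (−4.83), Aco1 (−3.78), Ppp1r10 (−3.12), Stox2 (−3.01), Tbc1d12 (−2.68) and Eif2s1 (−2.29). In 11 of the 12 at least 1 of the 8 libraries had an interval over the region with no summit in it; the exception was Eif2s1. At the end of Egr3, an immediate early transcription factor, the rank scores with KCl were 0 in both knockout libraries and 4.98 and 4.90 in non-targeting libraries. In both of these knockout libraries an interval covered the region but no summit fell in it, so a score of 0 there does not show a closed site. Without KCl the rank scores at Egr3 were 1.89 and 1.94 in knockout libraries and 1.22 and 1.68 in non-targeting libraries.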

How the results depend on the processing

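Over all regions, 9882 were called (2354 higher, 7528 lower in knockout neurons), 2900 with KCl and 12 for the difference between states, and distal regions were called lower more often than gene ends by 9.05 percentage points. With the top 50000 summits the calls were 4084 (1223 and 2861), 947 with KCl, 821 for the difference, and 3.52 points. With whole intervals they were 6074 (lower 3503), 49 for the difference and 4.39 points, and with an overlap of 50% 4689 (lower 2928), 67 and 3.70 points. With log2 fold enrichment they were 3850 (297 and 3553), 16628 with KCl, 30 and 4.35 points. Library weights gave 5932 (1121 and 4811), 9600 with KCl and 5.89 points, the covariate of interval number 4308 higher, and the top 100000 summits 1634 with KCl. A fit on 8 libraries gave 533 with KCl and 19 for the difference. A fit on the 4 libraries called 0 of either direction with limma, and 5984 higher and 11613 lower at an unadjusted p under 0.05. Leaving out 1 library gave 2409 to 8930 calls (349 to 2806 higher, 2060 to 6124 lower), 16 to 31 for the difference and 2.40 to 7.31 points; the lone sample was assumed to vary like the other groups. Counting only regions called with both units, a choice made after seeing the data, left 4710 (1316 and 3394); requiring no missing summit left 1 of the 12 differences between states. With the top 30000 summits the gene-end share differed by 7.13 points (4.97 with 75000) and the distal share by −4.46 (−2.33).

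Knockout was lower in interval number and covered length, and higher in gene-end share, in every setting run. With whole intervals, under either overlap, the change turned at Spaca6 (−0.20), Exoc2 (−0.91), Chpf (−0.0045), Lbr (−0.15), E2f5 (−0.25), Xpa (−0.16), Pip5k1c (0.16), Fuz (0.13), Kat6b (0.71) and Adamts4 (0.38), all among the largest changes by summit; 6 of these were gains by summit and 4 losses. Of 1616 results for 90 named regions under 18 settings, 1315 kept direction and call, 266 lost the call and 15 gained it. The cause of these changes was not tested. The fit with a replicate block gave 3499 higher and 9648 lower regions and 4793 calls with KCl; same-numbered libraries deviated together weakly, with positive correlations in all 45 pairs of groups (0.0365 to 0.193, 0.127 in the pair compared). Only 32 exceeded 0.1, so the numbers were not taken to pair the libraries; this is a hint from the data, and the labels do not say what a number shares. Depth sets how many weak summits a list holds and could not be equalized from these files.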
